A study of Mus musculus with 39 samples.

Results

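The step from day 1 to day 2 of differentiation was examined in FlncKO-C2C12 cells, with 7 of the series' 39 libraries: all 4 of day 1 (replicates 1, 3, 4 and 5) and the 3 used of day 2 (replicates 1, 3 and 5), chosen by their labels and not by any measured value. C2C12 is a mouse myoblast line, and the knockout (KO) line was made from it with CRISPR/Cas9 and a guide to the first exon of Flnc, the gene of filamin C. Both groups share that edit, the low horse serum medium that starts differentiation, and daily medium changes, so that by the labels they differ in the day. For comparison, 8 libraries of WT-C2C12 cells cover the same 2 days. The labels do not say whether the KO line is 1 clone, nor whether replicates are separate cultures. The p-values therefore measure only the spread between libraries of a group, estimated from all 39 libraries of the series together.

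When serum is withdrawn, myoblasts leave the cell cycle, switch on muscle genes under the MyoD family of transcription factors, and fuse into multinucleated myotubes. Cell cycle exit silences the E2F targets of DNA replication and the later-acting mitotic genes, while the sarcomere, the calcium-handling membranes and the acetylcholine receptor are built. Filamin C is an actin crosslinker of the muscle Z-disc and of the sites where muscle attaches to its matrix.

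Between day 1 and day 2 of KO differentiation, 37 of 49 mitotic and 22 of 47 DNA replication genes were called lower, and 11 of 40 sarcomere and 6 of 29 calcium release and endplate genes were called higher. Of 13780 genes tested, 223 were lower at day 2 (1.62% of those tested) and 44 were higher (0.319%), in edgeR's quasi-likelihood test with a Benjamini-Hochberg adjusted p under 0.05, together 1.94% of those tested. All but a few were protein-coding, with 220 among the lower genes and 43 among the higher ones. The lower genes included 59 of the 96 tested members of the 2 cell cycle lists and the higher genes included 22 of the 177 tested members of the 7 muscle lists, with no member of the cell cycle lists higher and no member of the muscle lists lower. In bulk RNA, fewer cells of a type and less RNA per cell cannot be told apart.

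Flnc RNA was low in all 7 libraries. It was at 62.8, 25.7, 46.9 and 80.0 CPM (counts per 1000000 counts of the library) at day 1 and 75.9, 93.7 and 79.4 CPM at day 2, far below the wild-type levels of 787 ± 288 and 1210 ± 460 CPM (SD, n = 4 each), and its step on the log2 scale was 0.61 ± 0.32 (SE, adjusted p = 0.573). The deposited counts are per gene and do not show what the edited transcripts encode.

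Day 1 replicate 3 stood apart from the other KO day 1 libraries. Its mean correlation with them was 0.929, against 0.954 to 0.963 for the others, and it held 12964164 counts against 17832210 to 22301310. The day 2 libraries held 15919936 to 22968149 counts, and the mean correlation of each with the rest of its group was 0.974 to 0.979. Relative to its group, transcripts of the shortest 25% of genes were higher in day 1 replicate 3 by a median log2 of 0.98, and those of the longest 25% were lower (-1.01). Without it 21 genes were higher (0.153% of 13756 tested) and 142 lower (1.03%), of which 19 and 131 were among those called with it. The median log2 difference over all tested genes was -0.031 with it and 0.001 without it.

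Leaving out some of the other libraries moved the number of calls further. Without day 1 replicate 4, the library with the highest mitotic and lowest sarcomere levels, 7 genes were higher and 40 lower. Without day 2 replicate 1 the counts were 2 and 1, and without day 2 replicate 5 they were 7 and 2. A fit of the 7 libraries alone, with 5 residual degrees of freedom against 29 for all 39 libraries, called 0 genes at an adjusted p under 0.05 in edgeR, with 922 at an unadjusted p under 0.05; DESeq2 on all libraries called 87 higher and 354 lower. With the replicate number as a block the count of higher genes rose to 83 and that of lower genes was 305. Of 53 named genes called here, 2 were called in each of the 7 analyses that leave out 1 KO library: Racgap1 and Chrnd. These 2 were the genes kept without day 2 replicate 1, while 6 of the 53 were kept without day 2 replicate 5 and 13 without day 1 replicate 4.

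**Figure D1:**
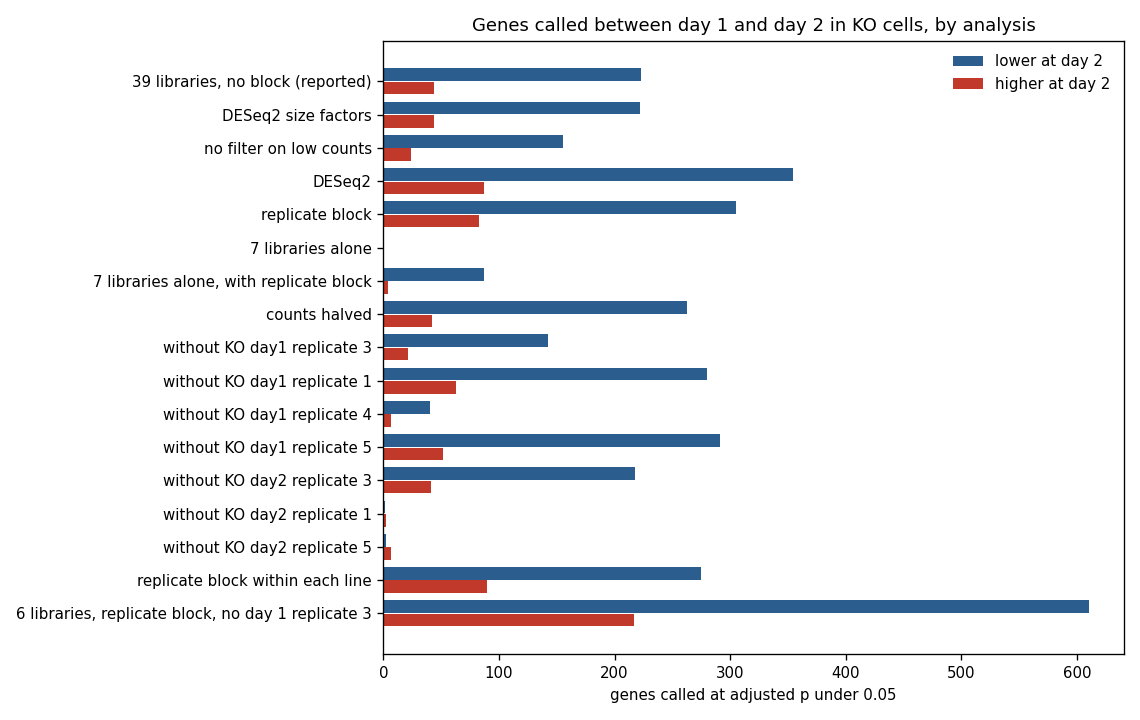
Number of genes called higher (red) or lower (blue) at day 2 than at day 1 in KO cells under each analysis, with the horizontal axis counting genes at an adjusted p under 0.05. The analysis reported here called 44 and 223, leaving out day 2 replicate 1 left 2 and 1, and the 7 libraries alone gave 0.

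Mitotic genes made up the largest group of lower calls in any list. Of 49 tested genes of mitosis and cytokinesis, 37 were lower at day 2 and 0 were higher, and all 49 had every day 2 library below every day 1 library (4.99% of all tested genes did). The median log2 difference of the list was -2.96, against -0.031 over all tested genes. By library, the median log2 CPM of the list was 5.74, 5.96, 6.58 and 5.08 at day 1 (replicates 1, 3, 4 and 5) and 2.34, 3.87 and 2.14 at day 2 (replicates 1, 3 and 5). Day 2 replicate 3 was the highest of its group, and the lowest day 1 library, replicate 5, was still above it. Within same-numbered libraries the list's median moved by -3.40, -2.09 and -2.94 for replicates 1, 3 and 5, and all 49 members were lower in all 3 pairs (16.9% of all tested genes were). Without day 1 replicate 3 the list had 27 lower calls and a median of -2.91. It had 10 lower calls without day 1 replicate 4, and 1 without day 2 replicate 1 or without day 2 replicate 5, while the median stayed between -3.72 and -2.63 in all the analyses run.

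**Figure D2:**
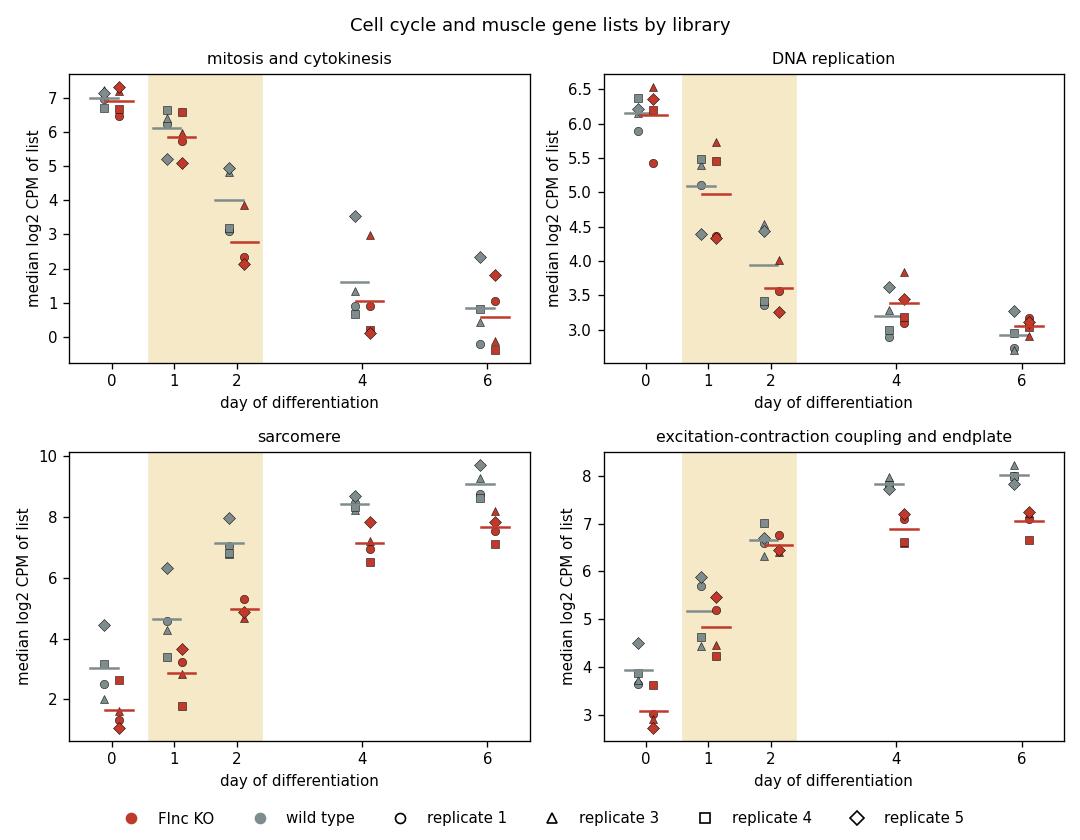
Median log2 CPM of the tested members of 4 gene lists in each of the 39 libraries, by day of differentiation, for KO (red) and wild type (grey), with horizontal bars at group means, marker shapes for replicate numbers, and the days 1 and 2 shaded. In the KO the mitosis list fell from between 5.08 and 6.58 at day 1 to between 2.14 and 3.87 at day 2, and the sarcomere list went from between 1.79 and 3.65 to between 4.68 and 5.31.

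Racgap1, a central spindle protein needed for cytokinesis (ENSMUSG00000023015; GRCm38 chromosome 15, 99620496 to 99651656, minus strand), had the smallest p of all genes. Its level was 213, 214, 395 and 134 CPM in the day 1 replicates 1, 3, 4 and 5, and 30.0, 64.4 and 32.9 CPM in the day 2 replicates 1, 3 and 5. Every day 2 library was below every day 1 library. The log2 difference was -2.53 ± 0.47 (SE, adjusted p = 0.0017), a 5.79-fold drop, and it ranged from -2.96 to -2.21 with an adjusted p of at most 0.0384 when 1 KO library was left out.

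Ect2, the RhoA exchange factor that Racgap1 binds at the central spindle, was at 52.3, 46.4, 91.7 and 37.4 CPM at day 1 and 6.27, 15.2 and 5.28 CPM at day 2 (log2 -2.71 ± 0.53, adjusted p = 0.00466). Incenp and Cdca8, subunits of the chromosomal passenger complex, fell by 2.10 ± 0.43 and by 2.84 ± 0.63 on the log2 scale (adjusted p = 0.00333 and 0.00841). These 3 genes kept their calls without day 1 replicate 3 and without day 1 replicate 4, and lost them without day 2 replicate 1 or replicate 5. Birc5, another passenger subunit, differed by -3.42 ± 0.86 (adjusted p = 0.0484) and was not called without day 1 replicate 3 (adjusted p = 0.152).

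Ube2c and Pttg1, which act in anaphase, were called lower. Ube2c, the ubiquitin-conjugating enzyme of the anaphase-promoting complex (ENSMUSG00000001403; chromosome 2, 164769898 to 164778822, plus strand), was at 62.8, 81.1, 93.6 and 34.2 CPM at day 1 and 6.27, 11.3 and 2.76 CPM at day 2 (log2 -3.37 ± 0.67, adjusted p = 0.00971). Pttg1, or securin, which holds separase inactive until anaphase, was at 51.2, 192, 90.1 and 42.0 CPM and then at 6.18, 15.8 and 7.47 CPM (log2 -3.34 ± 0.67, adjusted p = 0.0108). In day 1 replicate 3 Pttg1 was the highest of all, and without that library its difference was -2.63 (adjusted p = 0.0472). Ccna2, the S phase and mitotic cyclin A2, went from 97.5 ± 45.6 CPM (SD, n = 4) to 8.52 ± 7.22 (n = 3), a log2 difference of -3.55 ± 0.72 (adjusted p = 0.0364), which without day 1 replicate 3 was -3.53 and not called (adjusted p = 0.0634).

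The kinetochore gene Ska1 had the largest decrease among called genes that averaged at least 5 CPM over the 7 libraries with no overlap, at -3.84 ± 0.99 (adjusted p = 0.0211), from 10.7 ± 6.35 CPM (SD, n = 4) to 0.762 ± 0.953 (n = 3). Cenpa, the centromeric histone H3 variant, and Ckap2l, a spindle protein, differed by -3.27 ± 0.78 and -3.27 ± 0.58 (adjusted p = 0.0284 and 0.0227). Ckap2l kept its call without day 1 replicate 3 (adjusted p = 0.0371), while Ska1 and Cenpa did not (adjusted p = 0.0573 and 0.102). Neurl1b, a ubiquitin ligase that acts on Notch ligands and belongs to no cell cycle list, differed by -3.37 ± 0.86 (adjusted p = 0.0227).

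A pair of common proliferation markers did not pass the test. Mki67, which encodes the Ki-67 antigen, was at 207, 49.8, 333 and 123 CPM at day 1 and 8.71, 43.8 and 13.3 CPM at day 2, with no overlap and a log2 difference of -3.03 ± 0.88 (adjusted p = 0.134). Day 1 replicate 3 and day 2 replicate 3 were close for this long transcript, at 49.8 and 43.8 CPM. Top2a, the DNA topoisomerase that untangles chromosomes, was at 333, 209, 681 and 237 CPM and then at 32.1, 91.4 and 31.9 CPM (-2.84 ± 0.62, adjusted p = 0.0818). Top2a was called with the replicate block (-3.13, adjusted p = 0.0345).

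Since the mitotic genes moved together, their promoters are shown for the short elements known from cell cycle genes, with those of a replication gene and of a pair of muscle genes for comparison. RefSeq windows of 300 bases (GRCm38.p6, 250 before to 50 after each annotated start) were matched by symbol for 41 of the 49 mitotic genes, as 43 windows. The element CHR (cell cycle genes homology region, searched as TTTGAA on both strands) was in 72.1% of these, against 17.9% of all 32851 windows, and the CCAAT box (CCAAT on both strands) in 76.7% against 37.4%. The CCAAT box was also frequent in the 45 replication windows, at 57.8%, while CHR was in 15.6% of them. Both were in 62.8% of the mitotic windows and in 6.95% of all windows; they share a base in 1 mitotic window. The E2F element (TTTGGCGC or TTTCCCGC on both strands) was in 26.7% of 45 replication windows against 1.56% of all, and the E-box CAGCTG, which reads the same on both strands, in 37.8% of 37 sarcomere windows and 50% of 22 calcium release and endplate windows against 16.3% of all. The muscle element MEF2 (CTAAAAATA on both strands) was in 0% of the sarcomere windows and 4.55% of the calcium release and endplate windows, against 0.517% of all. A match is a string of letters and not a measured binding site. Each stretch below runs from 230 bases before to 20 after the start, in the gene's direction. Capitals mark CHR and CCAAT boxes in Racgap1 (chr15:99651637-99651886, minus strand) and Ube2c (chr2:164769699-164769948, plus strand), E2F elements and CCAAT boxes in Mcm6 (chr1:128359686-128359935, minus strand), and the E-box in Acta1 (chr8:123894756-123895005, minus strand) and Mylpf (chr7:127211378-127211627, plus strand). The genes were picked after their values and windows were seen.
Racgap1: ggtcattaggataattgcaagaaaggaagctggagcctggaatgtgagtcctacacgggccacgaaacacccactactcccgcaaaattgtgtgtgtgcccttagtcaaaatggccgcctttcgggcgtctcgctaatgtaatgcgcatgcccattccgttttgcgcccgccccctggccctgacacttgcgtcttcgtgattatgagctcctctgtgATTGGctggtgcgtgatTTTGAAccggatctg
Ube2c: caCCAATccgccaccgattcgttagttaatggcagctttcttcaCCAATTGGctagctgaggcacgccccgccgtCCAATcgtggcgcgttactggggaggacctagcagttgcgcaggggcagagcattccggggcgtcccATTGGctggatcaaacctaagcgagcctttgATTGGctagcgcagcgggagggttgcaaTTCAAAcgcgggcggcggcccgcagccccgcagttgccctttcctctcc
Mcm6: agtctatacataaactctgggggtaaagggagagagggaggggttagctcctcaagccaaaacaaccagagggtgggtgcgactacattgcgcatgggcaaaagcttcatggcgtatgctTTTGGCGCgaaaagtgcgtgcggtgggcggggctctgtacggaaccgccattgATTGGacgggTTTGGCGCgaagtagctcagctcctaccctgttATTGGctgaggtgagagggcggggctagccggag
Acta1: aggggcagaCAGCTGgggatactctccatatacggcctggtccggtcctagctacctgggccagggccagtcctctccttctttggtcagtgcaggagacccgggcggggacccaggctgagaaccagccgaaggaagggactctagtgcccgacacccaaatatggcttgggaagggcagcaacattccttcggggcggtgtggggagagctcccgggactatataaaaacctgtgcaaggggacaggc
Mylpf: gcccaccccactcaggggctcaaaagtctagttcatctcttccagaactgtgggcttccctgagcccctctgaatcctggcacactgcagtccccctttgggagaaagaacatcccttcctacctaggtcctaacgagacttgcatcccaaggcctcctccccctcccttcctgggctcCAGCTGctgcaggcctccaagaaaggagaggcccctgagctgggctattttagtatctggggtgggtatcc

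In Racgap1 the CHR begins 5 bases after the start and the CCAAT box 12 bases before it. In Ube2c the CHR lies 29 bases before the start, with 6 CCAAT matches, read on either strand, between 228 and 57 bases before it. The matches that begin 186 and 183 bases before the start lie on opposite strands and overlap in CCAATTGG. Mcm6, a subunit of the replicative helicase, has E2F elements 110 and 47 bases before its start, and its RNA was at 74.1, 115, 187 and 62.1 CPM at day 1 and 36.6, 54.2 and 30.7 CPM at day 2 (log2 -1.48 ± 0.44, adjusted p = 0.0227, and 0.0531 without day 1 replicate 3). RefSeq's starts for the Ube2c and Mylpf windows lie inside the genes' GENCODE spans (164769898 to 164778822 and 127208890 to 127214298). All positions given here are counted from RefSeq's starts. The E-boxes of Acta1 and Mylpf begin 221 and 51 bases before the start.

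DNA replication genes, which act before mitosis, were the other cell cycle list. Of 47 tested members, 22 were lower and 0 higher, with a list median of -1.60, and 27 had every day 2 library below every day 1 library. The median log2 CPM of the list was 4.37, 5.74, 5.46 and 4.34 at day 1 and 3.56, 4.02 and 3.25 at day 2, so that day 1 replicates 1 and 5 were nearest to the day 2 libraries, and in the same-numbered pairs 44 of the 47 were lower in all 3. The count of lower calls was 7 without day 1 replicate 3, 2 without day 1 replicate 4, 34 without day 1 replicate 5, and 0 without day 2 replicate 1 or replicate 5; DESeq2 called 35. The median ranged from -1.83 to -0.99.

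The smallest p among replication genes belonged to Asf1b, a chaperone that hands new histones to the replication fork, at 27.5, 64.5, 72.2 and 21.1 CPM at day 1 and 3.40, 13.2 and 2.39 CPM at day 2 (log2 -2.93 ± 0.87, adjusted p = 0.00488). Chaf1a, the large subunit of the histone-depositing complex CAF-1, was lower by a smaller amount, -1.71 ± 0.47 (adjusted p = 0.00971). Mcm3, another helicase subunit, was at 50.9, 92.7, 136 and 43.1 CPM and then at 15.7, 25.8 and 14.3 CPM (-2.17 ± 0.48, adjusted p = 0.00725). Fen1, the nuclease that trims Okazaki fragments, changed by -1.41 ± 0.31 (adjusted p = 0.00888). All 4 kept their calls without day 1 replicate 3 and lost them without day 2 replicate 1 or replicate 5, and Chaf1a and Fen1 also without day 1 replicate 4. Ccne2, the G1/S cyclin E2, was at 7.30, 62.1, 31.1 and 11.2 CPM at day 1, highest in replicate 3, and its difference of -3.31 ± 0.85 (adjusted p = 0.025) became -2.45 without that library (adjusted p = 0.147). Pclaf, a factor that binds the sliding clamp PCNA, showed the same dependence, with -3.66 ± 1.12 (adjusted p = 0.04) and then -3.11 (adjusted p = 0.127).

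Inhibitors of the cell cycle split in direction. Among 21 tested brakes and D cyclins, 2 were higher and 3 lower. Cdkn1a, which encodes the CDK inhibitor p21 that myoblasts use to exit the cycle, was at 295, 274, 155 and 233 CPM at day 1 and 1050, 524 and 331 CPM at day 2 (log2 1.35 ± 0.53, adjusted p = 0.0229). Its day 2 libraries spread widely, with replicate 1 the highest, and without day 2 replicate 1 the difference was 0.78 (adjusted p = 0.546); without day 1 replicate 4 it was 1.18 (adjusted p = 0.13). Gadd45a, a stress-induced growth arrest gene, was at 97.9 ± 48.0 CPM (SD, n = 4) and then at 264 ± 87.0 (n = 3), with a log2 difference of 1.40 ± 0.50 (adjusted p = 0.0234, and 0.0635 without day 1 replicate 3).

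The lower inhibitors were of the INK4 family, which blocks CDK4 and CDK6. Cdkn2d (p19) was at 17.1, 27.6, 30.8 and 21.3 CPM at day 1 and 7.31, 10.1 and 6.53 CPM at day 2 (-1.64 ± 0.28, adjusted p = 0.00333), and Cdkn2c (p18) at 36.2, 31.5, 61.3 and 32.5 CPM and then at 7.88, 18.4 and 14.3 CPM (-1.61 ± 0.41, adjusted p = 0.00841). Both kept their calls without day 1 replicate 3, and both lost them without day 2 replicate 1 or replicate 5, Cdkn2c also without day 1 replicate 4. Rbl1, the pocket protein p107 and itself an E2F target, was the third of the lower genes, at -1.45 ± 0.37 (adjusted p = 0.0285, and 0.0316 without day 1 replicate 3). Ccnd1 (cyclin D1) was at 114 ± 45.6 and 47.0 ± 13.7 CPM with no overlap (-1.33 ± 0.38, adjusted p = 0.276). Gtse1, a p53-binding protein of dividing cells, was the lower gene of 20 tested p53 targets, beside Cdkn1a as the higher one (-2.47 ± 0.73, adjusted p = 0.00578). Cdkn1c, which encodes p57, was low on both days, at 2.08 ± 1.04 and 1.20 ± 0.727 CPM (adjusted p = 0.694).

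**Figure D3:**
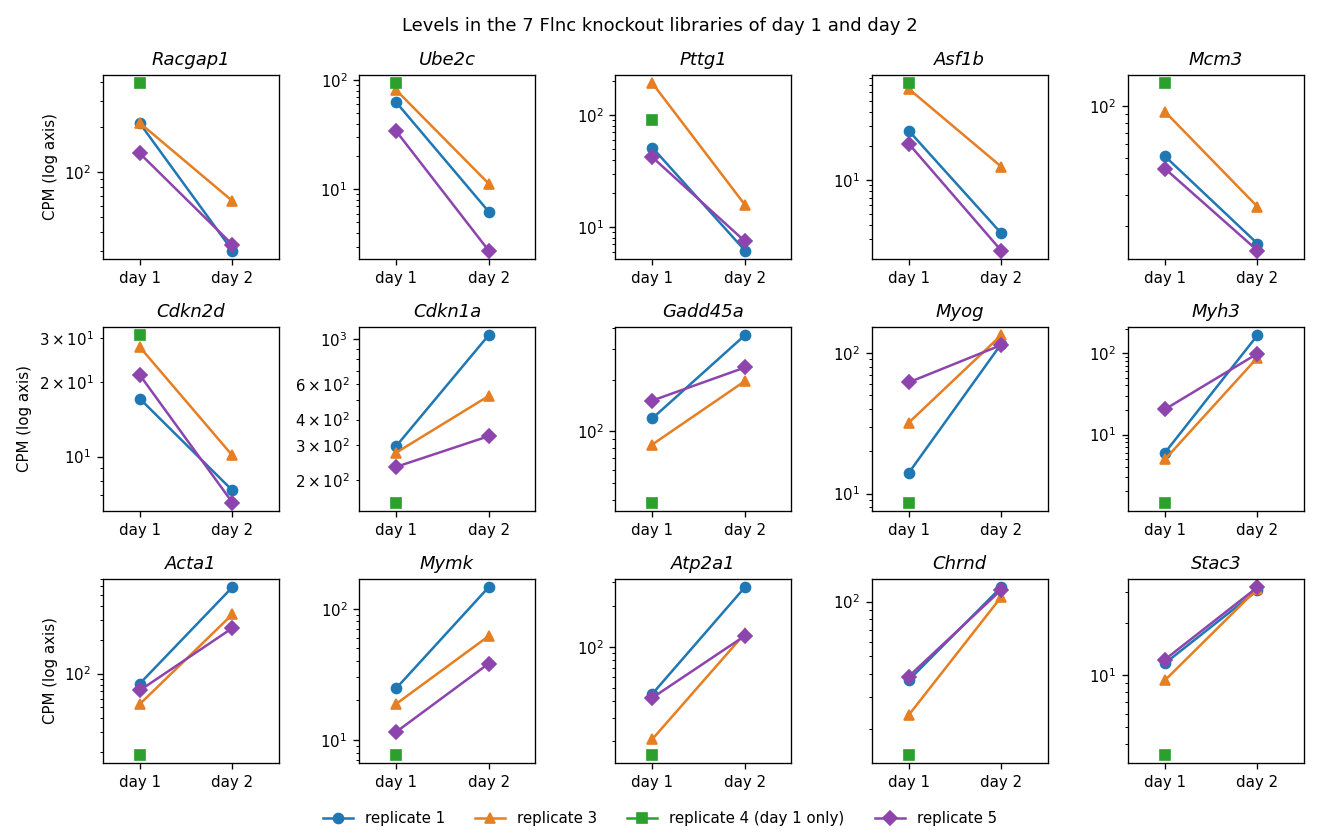
CPM of 15 genes (log axes) in the 4 KO libraries of day 1 and the 3 of day 2, with lines joining libraries of the same replicate number and day 1 replicate 4 shown alone. Cell cycle genes lead the panels and muscle genes follow, and Chrnd ended at 106 to 120 CPM in all 3 day 2 libraries.

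Sarcomere genes moved up, with the list centred on a log2 difference of 1.76. Of 40 tested members, 11 were higher and 0 lower, and 24 had every day 2 library above every day 1 library (3.90% of all tested genes did). The median log2 CPM was 3.23, 2.83, 1.79 and 3.65 at day 1 and 5.31, 4.68 and 4.87 at day 2, with day 1 replicate 4 the lowest. All 3 same-numbered pairs rose, by 2.08, 1.85 and 1.22, and 29 members were higher in all 3 pairs (16.6% of all tested genes were). The 11 calls became 6 without day 1 replicate 3, 7 without day 1 replicate 5 or day 2 replicate 3, and 0 without day 1 replicate 4, day 2 replicate 1 or day 2 replicate 5; the median stayed between 1.34 and 2.10.

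Myh3, the embryonic myosin heavy chain that marks early myotubes, had the largest increase among called genes chosen in the same way. It was at 5.97, 4.94, 1.46 and 20.4 CPM at day 1 and 166, 88.2 and 98.6 CPM at day 2 (log2 3.81 ± 0.81, adjusted p = 0.0227). Day 1 replicate 5 had the highest level of its group, and without day 1 replicate 3 the adjusted p was 0.0806. Acta1, the skeletal muscle alpha-actin whose promoter is shown above (ENSMUSG00000031972; chromosome 8, 123891769 to 123894751, minus strand), was at 81.5, 53.5, 19.0 and 70.9 CPM and then at 590, 338 and 255 CPM (2.77 ± 0.60, adjusted p = 0.0108). Its call held without day 1 replicate 3 (2.79, adjusted p = 0.035) and not without day 1 replicate 4, day 2 replicate 1 or day 2 replicate 5 (adjusted p up to 0.144).

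Troponin and light chain genes were also called. Mylpf, the fast regulatory light chain, was at 56.3, 86.5, 8.30 and 51.2 CPM and then at 447, 228 and 145 CPM (2.36 ± 0.90, adjusted p = 0.0284). Tnnt3, Tnnc1 and Tnni1, which encode fast troponin T, slow troponin C and slow troponin I, had log2 differences of 2.47 ± 0.77, 2.38 ± 0.74 and 2.37 ± 0.61 (adjusted p = 0.028, 0.0291 and 0.047), and Tnnt3 was not called without day 1 replicate 3 (adjusted p = 0.065). Over the 7 analyses that leave out 1 KO library, Tnnt3 was called in 3, Tnnc1 in 2 and Tnni1 in 1 (adjusted p up to 0.29, 0.278 and 0.245). Myh7, the slow myosin heavy chain, was at 7.94, 2.31, 4.65 and 12.7 CPM and then at 33.1, 25.6 and 26.0 CPM (2.01 ± 0.49, adjusted p = 0.0484, and 0.189 without day 1 replicate 3). Tnnt2, the cardiac troponin T also made by immature muscle, was not called: it was at 23.2, 124, 56.2 and 63.3 CPM at day 1 and 84.5, 71.5 and 70.4 CPM at day 2 (0.10 ± 0.53, adjusted p = 0.973). In wild type the Tnnt2 step was 1.91 ± 0.47, and the difference between the steps, -1.80 ± 0.71, was not called (adjusted p = 1).

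Accessory genes of the filaments were called at low levels. Myom3, an M-band protein, was at 1.97, 0, 0.785 and 2.51 CPM at day 1 and 13.0, 7.08 and 9.05 CPM at day 2 (2.80 ± 1.07, adjusted p = 0.00971). Lmod2, which elongates thin filaments, was at 0 in day 1 replicates 3 and 4 and at 0.493 and 1.30 CPM in replicates 1 and 5, against 3.22 to 6.57 CPM at day 2 (3.40 ± 0.97, adjusted p = 0.0234). Unc45b, a chaperone that folds myosin, and Mybph, a myosin-binding protein, were higher by 2.7 ± 0.74 and 3.16 ± 0.93 (adjusted p = 0.0392 and 0.041). None of Lmod2, Unc45b and Mybph was called without day 1 replicate 3 (adjusted p = 0.0802, 0.145 and 0.0704). With each of the 7 KO libraries left out in turn, Lmod2 was called in 3 analyses, Unc45b in 1 and Mybph in 0. Actc1, the cardiac alpha-actin, was at 0.449 to 3.24 CPM at day 1 and 5.36 to 11.0 CPM at day 2, with no overlap (1.77 ± 0.69, adjusted p = 0.298). In wild type it went from 130.0 ± 127 to 687 ± 231 CPM (SD, n = 4 each), a step of 2.41 ± 0.62 (adjusted p = 0.0321). The difference between the steps of Actc1, -0.64 ± 0.93, was not called.

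Genes of excitation-contraction coupling and the endplate, which turn a nerve impulse into calcium release, were called in 1 direction. Of 29 tested members, 6 were higher and 0 lower, with a median of 0.65, and the median log2 CPM went from 5.19, 4.45, 4.23 and 5.47 to 6.76, 6.41 and 6.45. Chrnd, the delta subunit of the muscle acetylcholine receptor (ENSMUSG00000026251; chromosome 1, 87190607 to 87200070, plus strand), was at 36.9, 23.7, 14.4 and 38.7 CPM at day 1 and 120, 106 and 116 CPM at day 2. All 3 day 2 libraries lay close together and above every day 1 library, and the log2 difference was 1.97 ± 0.33 (adjusted p = 0.00333). It was 1.68, 1.98 and 1.61 within pairs 1, 3 and 5, and 1.74 to 2.12 with 1 KO library left out (adjusted p at most 0.0384). The count of 6 was 5 without day 1 replicate 3, 2 without day 1 replicate 4 or day 2 replicate 5, and 1 without day 2 replicate 1.

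The other 5 called genes of this list build the voltage sensor and calcium store. Stac3, an adaptor that the voltage sensor needs, was at 11.7, 9.33, 3.48 and 12.3 CPM and then at 30.9, 31.6 and 32.2 CPM (1.73 ± 0.43, adjusted p = 0.00841). The sensor's subunits Cacnb1 and Cacna1s were higher by 1.51 ± 0.39 and 3.46 ± 0.62 (adjusted p = 0.00921 and 0.0134), and Cacna1s was at most 1.13 CPM at day 1. Atp2a1, the fast muscle calcium pump SERCA1, was at 45.0, 20.8, 16.0 and 42.1 CPM and then at 277, 126 and 121 CPM (2.47 ± 0.53, adjusted p = 0.0107). Srl, the calcium-binding sarcalumenin, went from 22.2 to 92.0 CPM at day 1 to 148 to 273 CPM at day 2 (2.26 ± 0.50, adjusted p = 0.0322, and 0.129 without day 1 replicate 3).

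Both muscle fusogens were higher, and no other gene of the fusion list was called. Mymk (myomaker), which drives the merging of membranes, was at 24.7, 18.8, 7.74 and 11.5 CPM and then at 146, 61.9 and 38.2 CPM (2.33 ± 0.69, adjusted p = 0.0121). Mymx (myomixer), its small partner, was at 3.75, 3.09, 0.336 and 4.39 CPM and then at 15.1, 12.3 and 10.5 CPM (2.08 ± 0.81, adjusted p = 0.0407). Mymk kept its call without day 1 replicate 3 (adjusted p = 0.0255) and lost it without day 1 replicate 4 or day 2 replicate 1, and Mymx lost it in 5 of the 7 analyses without 1 library, day 1 replicate 3 among them (adjusted p = 0.0891). These were the 2 called of 21 tested fusion genes, whose list median was 0.02.

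No myogenic transcription factor passed the test. Myog (myogenin), which drives terminal differentiation, was at 14.0, 31.9, 8.64 and 61.8 CPM at day 1 and 116, 134 and 114 CPM at day 2, with no overlap (2.02 ± 0.64, adjusted p = 0.0719). The day 1 libraries were spread and the day 2 libraries close together, and Myog was called with the replicate block (2.25, adjusted p = 0.0114) and without day 1 replicate 5 (2.64, adjusted p = 0.0178). Myod1, the founding member of the family, was at 233 ± 37.4 and 302 ± 41.8 CPM (0.33 ± 0.17, adjusted p = 0.657). Myf5 and Mef2c differed by -0.14 ± 0.40 and -0.56 ± 0.43 (adjusted p = 0.94 and 0.755), and Pax7, the satellite cell factor, was below 2 CPM in all 7 libraries.

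Inhibitors of MyoD activity were not called either. Id3 was at 249, 620, 241 and 317 CPM at day 1, highest in replicate 3, and at 253, 514 and 360 CPM at day 2, again highest in replicate 3 (0.00 ± 0.46, adjusted p = 1). Id1 and Id2 differed by 0.43 ± 0.26 and 0.22 ± 0.28 (adjusted p = 0.675 and 0.834). In wild type, Id3 was at 34.4 ± 15.1 and 10.9 ± 5.39 CPM on these days, and its step there was -1.61 ± 0.60 (adjusted p = 0.0582); the difference between the lines' steps, 1.61 ± 0.76, was not called (adjusted p = 1).

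Of the muscle energy genes, a pair with low levels at day 1 was called. Cox6a2, the muscle form of a cytochrome oxidase subunit, had 0 counts in all 4 day 1 libraries and 95 counts over the day 2 libraries, which held 2.83, 0.908 and 0.628 CPM. Against a floor of 3 counts over the day 1 group (0.0409 CPM), its pooled level of 1.56 CPM was at least 38.1-fold higher (adjusted p = 0.00333; the floor covers counting error only). The sources used here do not say whether the mates of a read pair were counted singly, and even counts made up 60.6% to 71.1% of the counts above 0 in these libraries; if mates were counted singly, this bound would be lower. Ckm, the muscle creatine kinase, was at 5.03, 3.09, 0.673 and 4.21 CPM and then at 45.9, 15.7 and 15.5 CPM (2.93 ± 0.81, adjusted p = 0.0291, and 0.0865 without day 1 replicate 3). They were the 2 called of 21 tested members, and with the replicate block 4 were called.

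Partners of filamin C held few calls. Flna, which encodes filamin A, a widely expressed actin crosslinker, differed by -0.22 ± 0.34 (adjusted p = 0.886). Csrp3, a Z-disc LIM protein, was the single call among 29 tested Z-disc and filamin C partner genes, at 0.112 to 0.690 CPM and then 1.88 to 6.31 CPM (2.98 ± 0.65, adjusted p = 0.0328), and it was not called without day 1 replicate 3 (adjusted p = 0.0981). Itgb1bp2 (melusin), which binds the muscle integrin, went from at most 0.986 CPM to 2.63 to 6.84 CPM (2.98 ± 0.59, adjusted p = 0.0386, and 0.135 without day 1 replicate 3). It was called in 2 of the 7 analyses that leave out 1 KO library. Its call was the only one among 29 tested integrin and focal adhesion genes, whose list median was -0.14.

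**Figure D4:**
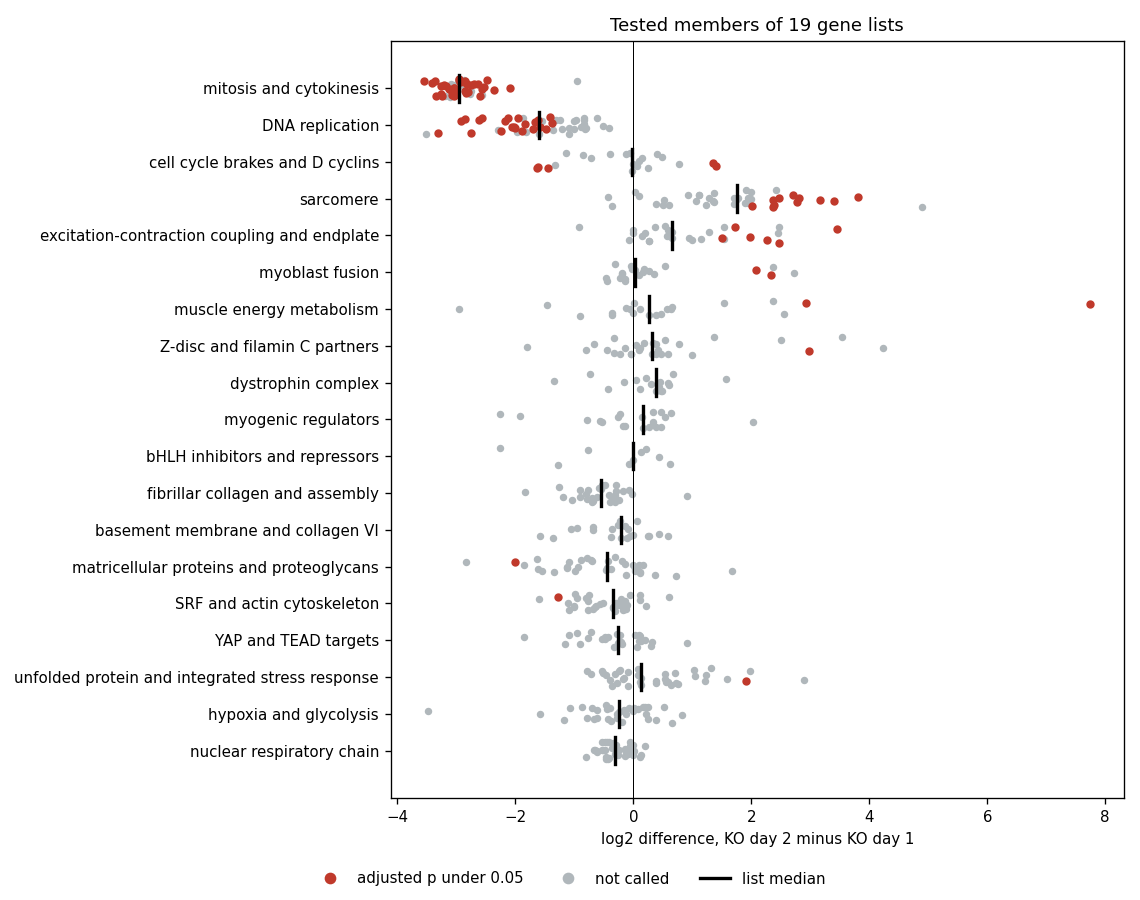
Log2 difference between KO day 2 and KO day 1 for each tested member of 19 gene lists, with called genes in red, others in grey and the list median as a black bar. The mitosis list is centred on -2.96 and the sarcomere list on 1.76, while the medians of the matrix, cytoskeleton, stress and respiratory lists lie between -0.55 and 0.13.

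In the lists other than those of the cell cycle and muscle, few members were called. Of the 223 lower and 44 higher genes, 157 and 16 belong to none of the 43 lists. In the SRF and actin cytoskeleton list 1 of 36 was lower: Tpm4, a nonmuscle tropomyosin, at 476, 870, 588 and 572 CPM and then at 244, 319 and 242 CPM (-1.28 ± 0.26, adjusted p = 0.0226, and 0.109 without day 1 replicate 3). With the replicate block 4 genes of this list were lower, and its median was -0.34. Tnc (tenascin C) was the lower gene of 34 matricellular proteins, at 138, 84.1, 235 and 89.7 CPM and then at 50.6, 41.3 and 11.8 CPM (-2.01 ± 0.73, adjusted p = 0.0465, and 0.057 without day 1 replicate 3). With the block 3 were lower. The matricellular gene Postn was not called, at 110 to 652 CPM and 317 to 783 CPM (0.72 ± 0.62, adjusted p = 0.756). Abca1 was the single call among 39 tested sterol and fatty acid synthesis genes. It was at 0.0986, 0, 0 and 1.52 CPM and then at 0.61, 5.18 and 9.67 CPM, with overlap (3.5 ± 1.46, adjusted p = 0.0358). Of the 7 analyses that leave out 1 KO library, 1 called it, the one without day 1 replicate 5.

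Fibrillar collagen and assembly genes had a list median of -0.55, with 28 of 29 below 0 and 0 called in edgeR (1 lower in DESeq2). That median was -0.27 without day 1 replicate 4 and -0.69 without day 1 replicate 3, where again 0 were called. The list's median level moved by 0.02, 0.17 and -0.56 within the pairs of replicates 1, 3 and 5. Of 21 basement membrane and collagen VI genes, 0 were called with day 1 replicate 3 and 2 were lower without it. Their median was -0.21 with that library and -0.47 without it. Of 41 TGF-beta and BMP signalling genes, 0 were called with it and 2 were lower without it. In the list of unfolded protein and integrated stress response genes 1 of 39 was higher, and 4 were with the block. The list median was 0.13, and without day 1 replicate 3 it was 0.53 with 2 genes higher. That gene was Atf3, a stress-induced transcription factor, at 6.21, 6.48, 2.36 and 3.59 CPM and then at 36.4, 7.08 and 10.9 CPM (1.91 ± 0.79, adjusted p = 0.0291). Day 2 replicate 1 was the highest library, and without it the difference was 0.89 (adjusted p = 0.761). Fgf21, a stress-induced secreted factor, was the single call among 46 tested growth factors and their receptors. It was at 0.0986, 0, 0 and 0.986 CPM and then at 5.75, 4.90 and 3.39 CPM (3.91 ± 0.81, adjusted p = 0.0107). Its call held without day 1 replicate 3 (3.62, adjusted p = 0.0346). The call was lost without day 1 replicate 4, day 2 replicate 1 or day 2 replicate 5 (adjusted p up to 0.112).

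Some lists stood apart in day 1 replicate 3. The median log2 CPM of the insulin-like growth factor axis was 3.92 there against 5.57 to 6.24 in the other day 1 libraries, and that of basement membrane and collagen VI genes 6.24 against 7.85 to 8.41. Nuclear-encoded respiratory chain genes stood apart in the other direction. None of 39 was called in edgeR, and their median log2 CPM was 8.21 in that library against 6.72 to 7.00 in the other day 1 libraries and 6.84 to 7.02 at day 2. The list's median difference was -0.32 with that library and 0.22 without it. The share of counts from the mitochondrial genome was 1.73% in that library, 2.84% to 3.44% in the other day 1 libraries and 2.78% to 3.79% at day 2.

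No tested myoblast marker and no tested marker of another cell type was called. Many of the others did not pass the count filter and could not be called. Those tested were 3 of 7 endothelial, 3 of 8 adipocyte, 4 of 8 macrophage and leukocyte and 5 of 8 neural and glial markers. Chondrocyte, osteoblast and tendon markers (6 of 11 tested) summed to 144 to 190 CPM at day 1 and 170 to 205 CPM at day 2. Myoblast markers summed to 3470 to 5100 CPM at day 1 and 4210 to 6650 at day 2, with 0 of 7 called. The summed level of 7 endothelial markers was 0.154 to 1.61 CPM and then 1.04 to 3.13 CPM, and 2 of them had no count in any of the 7 libraries. Macrophage and leukocyte markers summed to 14.6 to 23.8 CPM and then 16 to 23.3 CPM, with 3 of 8 at 0 throughout, and adipocyte markers to 39.1 to 48.9 and then 24.6 to 45.4 CPM, also with 3 of 8 at 0. Smooth muscle and pericyte markers, which C2C12 cells also express, summed to 5020 to 7530 and then 3160 to 6540 CPM (list median -0.75, 0 of 6 called), and neural and glial markers to 38 to 85.3 and then 39.4 to 56.2 CPM.

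Wild-type cells shared part of these calls. Their 4 day 1 and 4 day 2 libraries, none of which is shared with the KO step, gave 173 genes higher (1.26% of 13780) and 299 lower (2.17%), together 3.43%. Of the KO step's genes, 24 of the higher (54.5%) and 109 of the lower (48.9%) were called in the same direction in wild type, which is 13.9% and 36.5% of the wild-type calls, and none was called in opposite directions. Across genes, which are not independent replicates, the steps correlated at r = 0.447. Mitotic genes had a median of -1.99 in wild type with 19 of 49 lower, replication genes had 14 lower, and sarcomere genes had a median of 1.79 with 18 higher.

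**Figure D5:**
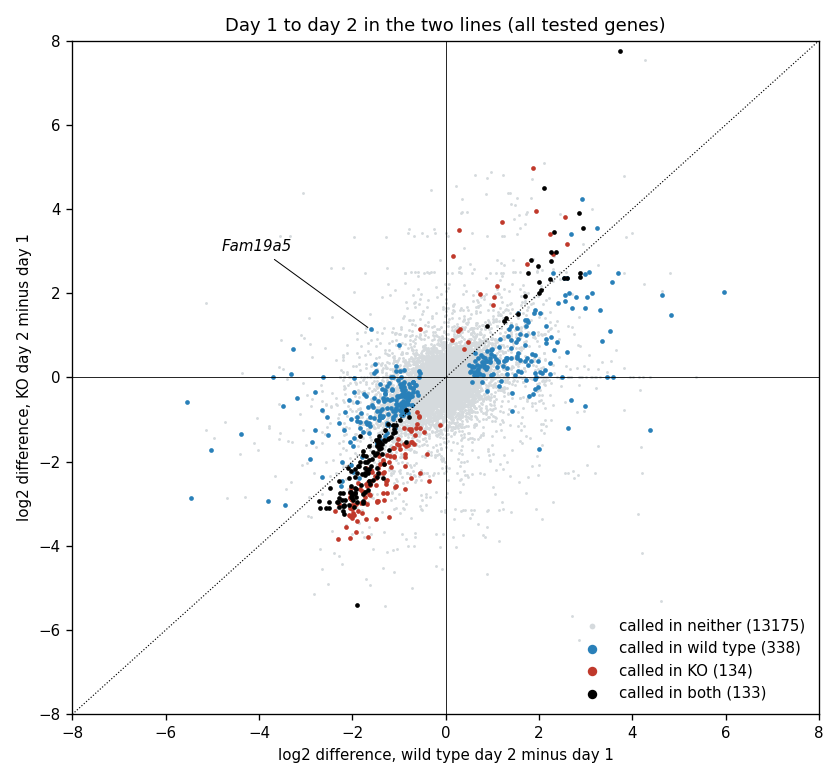
Log2 difference between day 2 and day 1 of each tested gene in wild type (horizontal axis) and in KO (vertical axis), with colours for genes called in KO (red, 134), wild type (blue, 338), both (black, 133) or neither, and a dotted line of equality. The genes called in both lie in the lower left and upper right, and Fam19a5 lies in the upper left.

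The steps themselves differed for 1 gene in the test of genotype by step (0.00726% of genes tested higher, 0% lower), with 472 genes at an unadjusted p under 0.05, and DESeq2 also called 1 higher and 0 lower. That gene was Fam19a5, which encodes a secreted protein of the TAFA family (ENSMUSG00000054863; chromosome 15, 87544299 to 87759364, plus strand). In KO cells it was at 9.42, 11.9, 10.2 and 13.9 CPM at day 1 and 14.3, 31.0 and 31.8 CPM at day 2 (1.14 ± 0.40, adjusted p = 0.052, and 0.0464 with the replicate block). In wild type it was at 11.1 ± 1.75 and 3.55 ± 1.12 CPM (SD, n = 4 each), a step of -1.61 ± 0.25 (adjusted p = 0.00423). The difference between the steps was 2.75 ± 0.47 (adjusted p = 0.00553), and without KO day 1 replicate 3 it was still the 1 gene called (0.00727% of those tested, adjusted p = 0.0107). It was not called without KO day 2 replicate 5 (2.57, adjusted p = 0.0518) or with only the libraries of these days (adjusted p = 0.109).

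For the leading KO genes the difference between the steps was not called. Racgap1 had a step of -2.53 in KO and -1.63 ± 0.45 in wild type, Ube2c -3.37 and -1.70 ± 0.48, and Chrnd 1.97 and 0.74 ± 0.35. The differences were -0.90 ± 0.65, -1.67 ± 0.82 and 1.22 ± 0.48, each with an adjusted p of 1. In wild type 14 unfolded protein and integrated stress response genes were higher, against 1 in KO (2 without KO day 1 replicate 3), and none of the 39 differed between the steps. WT day 2 replicate 4 had a median log2 CPM of 9.02 for that list, against 6.71 to 7.10 in the other WT day 2 libraries.

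Levels on the other days are set side by side here, since steps on either side share the day 1 or day 2 libraries. The median log2 CPM of the mitosis list, averaged over libraries, was 6.91 ± 0.41 at day 0, 5.84 ± 0.62 at day 1, 2.78 ± 0.95 (n = 3) at day 2, 1.06 ± 1.34 at day 4 and 0.59 ± 1.02 at day 6 (SD, n = 4 elsewhere). For DNA replication it was 6.13 ± 0.49, 4.98 ± 0.73, 3.61 ± 0.39, 3.39 ± 0.34 and 3.05 ± 0.12 on the same days. The day 2 and day 4 values of that list overlap, whereas those of mitosis still lay apart except in day 4 replicate 3. For sarcomere genes it was 1.67 ± 0.69, 2.88 ± 0.80, 4.95 ± 0.32, 7.12 ± 0.55 and 7.65 ± 0.46. Calcium release and endplate genes went from 3.07 ± 0.39 and 4.84 ± 0.59 to 6.54 ± 0.19 at day 2, and were then at 6.88 ± 0.31 and 7.06 ± 0.28, with day 2 and day 4 values overlapping.

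Single genes differed in their course. Chrnd was at 5.24 ± 1.33 CPM at day 0, 28.4 ± 11.5 at day 1, 114 ± 7.06 at day 2, 171 ± 39.9 at day 4 and 148 ± 38.3 at day 6. Acta1, by contrast, was at 58.9 ± 24.9 CPM at day 0 and 56.2 ± 27.4 at day 1, then at 394 ± 174 at day 2 and 2060 ± 822 at day 4. Racgap1 was at 474 ± 128, 239 ± 110.0 and 42.4 ± 19.0 CPM on days 0, 1 and 2, and at 22.1 ± 8.47 on day 4. These SDs are over 4 libraries, or 3 at day 2.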

How the data were processed

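Bulk RNA from C2C12 cells was sequenced by the submitters (TruSeq Stranded mRNA, per the labels' protocols). Per the submitters' processing notes, FastQC 0.11.9, STAR 2.7.9, featureCounts 2.0.3 and DESeq2 were used, with builds GRCm38 and GRCh38, and the role of the second is not given in the sources used here. The deposited table holds whole-number counts per gene for 29980 genes, of which 10001 have no read, and 1 column, headed as a KO day 2 replicate 4 but matching no sample used here, was not analysed. All IDs matched GENCODE release M21 (29980 of 29980, GRCm38).

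From the counts, all 39 libraries in 10 groups were fitted in 1 model with edgeR 4.0.16 (R 4.3.3, limma 3.58.1): TMM scaling, edgeR's filter on low counts by group (13780 genes kept), a robust quasi-likelihood F-test with 29 residual degrees of freedom, common biological coefficient of variation 0.326, and Benjamini-Hochberg adjustment at 0.05 over all genes tested. Every adjusted p is from this test unless stated. CPM are counts per 1000000 counts of the library total. Log2 differences are edgeR's fitted values with their SE taken from log2 CPM with a prior count of 2. The script was tested on simulated data. Totals of the 7 libraries ran from 12964164 to 22968149, and the floor given for a count of 0 covers counting error only.

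The text names, in either direction, the 10 called genes that changed most while averaging at least 5 CPM with no overlap between days, up to 4 genes with the smallest p of each list with a call, and a fixed set; 2 genes this rule names are not reported here. Mcm6, Rbl1, Myh7, Cacna1s, Srl, Trim63 and Fbxo32 fall outside this rule and were named after their values were seen. Members, the 43 gene lists and the rule were chosen with earlier results of these data known. Same-numbered KO libraries deviated together (r = 0.468, 0.331 and 0.456 for replicates 1, 3 and 5, different numbers -0.395 to 0.148), so the replicate block is treated as a pairing taken from the data. Alternatives were DESeq2 1.42.0, its size factors, no filter, halved counts, the block, the libraries of the contrast alone, and each library left out.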

Additional observations from a re-analysis of the deposited data

Results flagged for a closer look

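The difference between the KO and wild-type steps of Fam19a5 was 2.75 on the log2 scale and was the 1 called in the test of genotype by step. Dixon's criterion was applied to 77 measures (the named genes and some library measures), each over the same 4 KO day 1 libraries. For 6 of these measures 1 library lay far from the others. Chance alone gives about 1 in 20 for independent measures, but these share their libraries and are not independent. In KO day 1, Abca1, a cholesterol exporter, was at 1.52 CPM in replicate 5 against 0 to 0.0986 in the others, a gap of 0.935 of the range. Fgf21 was at 0.986 CPM in the same library against 0 to 0.0986 (0.9 of the range). That library also held Srl at 92.0 CPM against 22.2 to 29.7 (0.893 of the range) and Trim63 at 9.86 CPM against 2.13 to 3.16 (0.867 of the range). Cdkn2c was at 61.3 CPM in replicate 4 against 31.5 to 36.2 (0.841 of the range). Among genes with a read, the share whose count is an even number was 71.1% in replicate 3 against 61.1% to 62.2% in the other KO day 1 libraries (0.89 of the range).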

How the results depend on the processing

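The 44 higher and 223 lower genes of the KO step became 87 and 354 with DESeq2 and 24 and 155 with no filter on low counts. With the replicate block they became 83 and 305, and with the block within each line, an alternative chosen after seeing the data, 90 and 275. The 7 libraries alone gave 0 and 0, with the replicate block 4 and 87, and without day 1 replicate 3 but with the block (also chosen after seeing the data) 217 and 610, a fit with 1 residual degree of freedom. Leaving out 1 library gave 2 to 63 higher and 1 to 291 lower genes, the fewest without day 2 replicate 1. The difference between the KO and wild-type steps was called higher for 1 gene, for 0 to 1 genes with 1 library left out, for 0 genes in the libraries of these days alone, without or with the replicate block, and for 2 with the block within each line. The cause of these differences was not tested, beside the fewer libraries in some fits. DESeq2's size factors and halved counts left both counts within 1.5 times. Of 53 named genes called, none reversed, and the block kept all 53 and added calls for Myog, Top2a, Fam19a5, Trim63 and Fbxo32; it changed no other call among the 73 named genes. Reversals were limited to uncalled genes: Myf5 was 0.17 without day 1 replicate 1 and 0.03 without day 2 replicate 5, within a range of -0.45 to 0.17 with 1 library left out, and Tnnt2 was -0.19 without day 1 replicate 1, within a range of -0.19 to 0.68. Over 1495 comparisons of 93 results (single genes and counts of list members) with an alternative, 1003 were alike, 298 gene calls were lost, 29 were gained and 162 counts of list members moved by more than 1.5 times. Depth differed less than 2-fold between the 7 libraries.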

Other observations

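Ubiquitin ligase and autophagy genes, which mark protein turnover in muscle, held 0 calls of 23 tested in edgeR (2 higher in DESeq2, with the replicate block, or without day 1 replicate 5, and 1 without day 1 replicate 1), with a list median of 0.42 and 14 members higher in all 3 same-numbered pairs (16.6% of all tested genes were). Trim63 and Fbxo32, the muscle ligases MuRF1 and atrogin-1, differed by 1.61 ± 0.50 and 1.31 ± 0.64 (adjusted p = 0.0802 and 0.0909, and 0.0122 and 0.00851 with the replicate block). Interferon response and antigen presentation genes held 0 calls of 39, with a median of -0.37 (-0.23 without day 1 replicate 3) and 14 members lower in all 3 pairs (16.9% of all tested genes were). Dystrophin complex genes held 0 calls of 17, with a median of 0.39 (0.21 without day 1 replicate 3). The insulin-like growth factor axis held 0 calls of 22.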
